A study of Mus musculus with 2 samples.

Results

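The genes described here are 8 heat shock chaperones, chosen by symbol from the deposited count tables: Hspa1a, Hspa1b, Hspb1, Dnajb1, Hsp90aa1, Hsp90ab1, Hsph1 and Hspa8. All 8 were found, each as a single row, among 31054 genes. Chaperones bind unfolded stretches of other proteins and help them fold or keep them from clumping. When unfolded proteins accumulate, the transcription factor HSF1 is released from chaperones, forms trimers and binds heat shock elements, arrays of GAA units and their complement, in the promoters of the inducible members. Several inducible chaperones, like the immediate early genes, are also known to be switched on while tissue is dissociated into single cells.

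The cells came from gonadal white adipose tissue of male mice aged 18 months that carried p16-CreERT2 and R26-LSL-tdTomato, in which tamoxifen lets cells that express the senescence marker p16 switch on the red protein tdTomato permanently, so that the label marks p16 expression at the time of injection. After digestion with Liberase, CD31- CD45- cells were sorted into a tdTomato-positive (Tom+) and a tdTomato-negative (Tom-) fraction, and 1 droplet library of 3' ends was made from each. Both fractions share genotype, age and digestion, and the number of mice pooled is not given in the sources used here. With 1 library per fraction no test was possible, so a difference between the fractions cannot be told apart from a difference between the preparations, and all intervals below are 95% intervals for counting error only.

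Cells with 1001 to 6999 genes and a mitochondrial share under 8% numbered 3524 in the Tom+ and 6717 in the Tom- library, from totals of 61119807 and 96872394 unique molecular identifiers (UMIs, single captured molecules). Cells with at least 10 UMIs of Msln, Upk3b, Krt19, Lrrn4 and Upk1b together were called mesothelial (250 Tom+ and 1887 Tom-), and cells with fewer than 5 stromal (3263 and 4800). Markers that the rule did not use (Wt1, Krt8, Krt18, Gpm6a and Bnc1) summed to 2175 and 2321 CPM (UMIs per 1000000 UMIs of the class) in mesothelial cells of the Tom+ and Tom- libraries, and to 176 and 277 CPM in stromal cells. The stromal class was not purely stromal. Immunoglobulin genes gave over 1% of UMIs in 145 Tom+ and 67 Tom- stromal cells, which held 10.8% and 3.55% of all UMIs of that class. In these immunoglobulin-rich cells chaperone CPM was low, with Hspa8 at 429.9 CPM in the Tom+ and 644 CPM in the Tom- library. Immunoglobulin genes gave a median of 55.4% and 32.6% of their UMIs, which by itself lowers the CPM of all other genes. Stromal values of the 8 genes are therefore also given without these cells where that changes a direction. Median depth was 14235 UMIs per Tom+ stromal cell and 11270 per Tom- stromal cell. Of the kept cells, 506 Tom+ and 284 Tom- cells had a barcode that was also listed in the other library, and 9 barcodes were kept in both.

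Hspa1a (ENSMUSG00000091971) and Hspa1b (ENSMUSG00000090877) encode nearly identical inducible HSP70 proteins. They lie side by side on the minus strand of chromosome 17, at chr17:34969190-34972156 and chr17:34956436-34959238 of GRCm38, and each is a single exon. Of the windows of 90 bases in the annotated Hspa1a transcript, 49.3% also occurred in Hspa1b, but none of the 411 windows in its last 500 bases did, and the same held in the other direction. Reads in that 3' end, where this assay aims, could therefore be told apart by sequence, while reads in the shared windows further upstream could not. Gm20481, on the opposite strand over Hspa1a, was at no more than 0.188 CPM in any class. Their promoters are shown because they are almost the same sequence while the measured RNA levels differed. In the RefSeq sequences of GRCm38.p6 the 250 bases before the start site matched at 247 positions, 98.8%. Capitals mark a match to GAANNTTC or TTCNNGAA, the paired GAA units of a heat shock element, each of which reads the same on both strands. Hspb1 is shown beside them because it carries 2 such matches and had the largest difference between cell classes.
Hspa1a, chr17:34972157-34972406, minus strand: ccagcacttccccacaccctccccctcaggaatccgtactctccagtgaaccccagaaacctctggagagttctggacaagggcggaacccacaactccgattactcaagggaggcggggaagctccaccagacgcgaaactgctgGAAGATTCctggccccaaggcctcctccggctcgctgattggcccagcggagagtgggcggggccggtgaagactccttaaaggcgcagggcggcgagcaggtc
Hspa1b, chr17:34959239-34959488, minus strand: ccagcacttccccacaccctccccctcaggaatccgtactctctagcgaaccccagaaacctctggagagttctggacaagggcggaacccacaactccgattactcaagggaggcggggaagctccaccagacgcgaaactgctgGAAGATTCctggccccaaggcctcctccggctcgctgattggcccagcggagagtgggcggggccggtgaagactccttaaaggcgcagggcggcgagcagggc
Hspb1, chr5:135887669-135887918, plus strand: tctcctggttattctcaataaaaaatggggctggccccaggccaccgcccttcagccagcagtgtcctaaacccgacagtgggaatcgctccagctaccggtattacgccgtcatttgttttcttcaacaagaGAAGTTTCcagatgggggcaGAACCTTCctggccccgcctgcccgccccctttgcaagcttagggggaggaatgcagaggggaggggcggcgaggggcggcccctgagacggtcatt
The match began 104 bases before the start in both Hspa1a and Hspa1b, and 117 and 97 bases before it in Hspb1. RefSeq promoters were matched for 5 of the 8 genes. Among the others, Hsph1 held 1 match and Dnajb1, at its annotated 5' end, held none. At least 1 match was found in 12.8% of 32851 promoters of this length and at least 2 in 1.46%, so such letters are not rare, and a match describes the sequence only. The remaining genes lie at chr5:135887919-135889563 (Hspb1), chr8:83608193-83612653 (Dnajb1), chr12:110690605-110702728 (Hsp90aa1), chr17:45567775-45573271 (Hsp90ab1), chr5:149614287-149636376 (Hsph1) and chr9:40800984-40810087 (Hspa8).

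The levels below are CPM of UMIs summed over the cells of a class. Because each UMI stands for the 3' end of a single molecule, they are not scaled by gene length. Hspa8, the constitutive HSC70, was the most abundant of the 8 in stromal cells, and Hspb1, the small chaperone HSP27 that also binds actin filaments, was the most abundant in mesothelial cells.

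Hspa1a was at 147 CPM (144 to 150.5) in Tom+ stromal, 232 (228 to 236) in Tom- stromal, 196 (185 to 209) in Tom+ mesothelial and 268 (262 to 273) in Tom- mesothelial cells. Hspa1b was higher throughout, at 325 (320.1 to 330.0), 382 (377 to 387), 366 (349.7 to 382) and 455 (448 to 463) CPM in the same order. Both genes were lower in the Tom+ library within each class, and only the intervals of Hspa1b in Tom- stromal and Tom+ mesothelial cells met. Hspb1 was at 293 (288 to 298) and 397 (392 to 402) CPM in Tom+ and Tom- stromal cells, and at 2020.1 (1982 to 2059) and 2279.6 (2263 to 2296) CPM in mesothelial cells. Its mesothelial values lay far above both stromal values. Dnajb1, the J-domain protein that hands substrates to HSP70 and stimulates its ATPase, was at 204 (200.2 to 208) and 276 (272 to 280.4) CPM in stromal and at 349 (333 to 365) and 369.8 (363 to 376) CPM in mesothelial cells. Its mesothelial intervals overlapped. Hsp90aa1, the inducible cytosolic HSP90, was at 458 (453 to 464) and 459 (453 to 464) CPM in Tom+ and Tom- stromal cells, and at 765 (741 to 789) and 681 (672 to 690.0) CPM in mesothelial cells. Hsp90ab1, the constitutive HSP90, was at 962 (953 to 970.1) and 974 (966 to 982) CPM in stromal and 1613 (1579 to 1647) and 1518 (1504 to 1531) CPM in mesothelial cells. For both HSP90 genes the stromal intervals overlapped and the Tom+ mesothelial cells were highest. Hsph1, an HSP110 that acts as a nucleotide exchange factor for HSP70, was the scarcest, at 14.6 (13.5 to 15.7) and 12.6 (11.7 to 13.6) CPM in stromal and 22.4 (18.5 to 26.8) and 17.6 (16.2 to 19.1) CPM in mesothelial cells, with overlapping intervals between the libraries in each class. Hspa8 was at 1045 (1036 to 1054) and 1413 (1403 to 1423) CPM in stromal and 1668 (1633 to 1703) and 1793 (1778 to 1808) CPM in mesothelial cells. Its 4 intervals did not meet, with Tom+ stromal cells lowest. Together the 8 genes made up 0.345% and 0.415% of UMIs in Tom+ and Tom- stromal cells, and 0.700% and 0.738% in mesothelial cells.

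**Figure D1:**
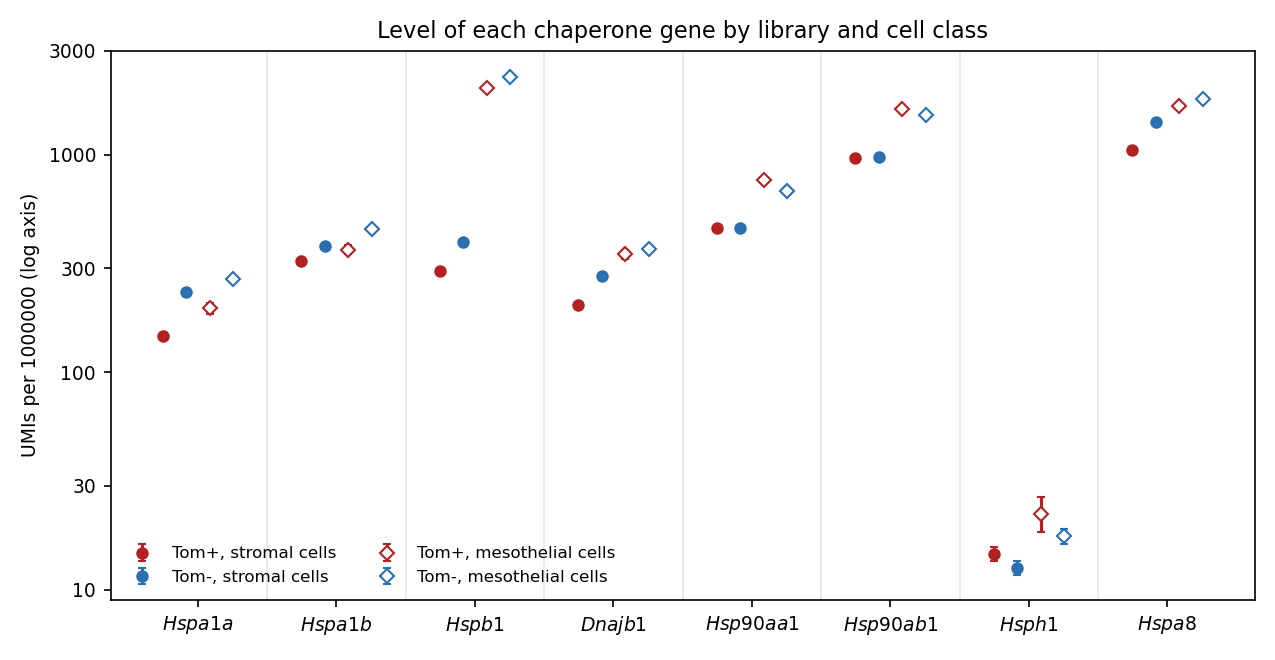
Level of each of the 8 genes in CPM (log axis), with Tom+ in red, Tom- in blue, filled circles for stromal and open diamonds for mesothelial cells. Bars are exact Poisson 95% intervals, mostly smaller than the symbols. Hspb1 stands at 2020.1 and 2279.6 CPM in mesothelial and at 293 and 397 CPM in stromal cells, and Hsph1 lies lowest of the 8.

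To ask whether Tom+ and Tom- stromal cells differed, the summed CPM of the libraries were compared. The members did not all move together. The inducible HSP70 genes, their cochaperone Dnajb1, Hspb1 and Hspa8 were lower in the Tom+ library, while the HSP90 genes were at nearly equal levels. The log2 ratio of Tom+ over Tom- was -0.66 (-0.70 to -0.62) for Hspa1a, -0.44 (-0.47 to -0.41) for Hspb1, -0.44 (-0.47 to -0.40) for Dnajb1, -0.43 (-0.45 to -0.42) for Hspa8 and -0.23 (-0.26 to -0.20) for Hspa1b. It was -0.0012 (-0.027 to 0.024) for Hsp90aa1, -0.019 (-0.036 to -0.0012) for Hsp90ab1 and 0.21 (0.058 to 0.36) for Hsph1. In linear terms Hspa1a was 1.58-fold higher in Tom- stromal cells, and Hspa8 1.35-fold. Only Hspa1a passed an absolute log2 ratio of 0.5, a size limit of 1.41-fold that is not a test. Of 9778 genes that averaged 5 CPM or more, 4.26% were lower and 6.39% higher by that limit, and the median log2 ratio was 0.071, so all members but Hsph1 lay below the median gene. Ranked among these genes, Hspa1a stood at percentile 2.49, Hspb1, Dnajb1 and Hspa8 between 5.62 and 5.73, Hspa1b at 14.1, Hsp90ab1 at 36.9 and Hsp90aa1 at 39.4. The immunoglobulin list itself summed to 60242 CPM in Tom+ and 15319 CPM in Tom- stromal cells, and the immune list to 454 and 219 CPM. Without the immunoglobulin-rich cells, a setting added once the values had been seen, the ratios of Hspa1a (-0.60), Hspa8 (-0.36), Dnajb1 (-0.36), Hspb1 (-0.34) and Hspa1b (-0.15) kept their direction. Those of Hsp90aa1 (0.076) and Hsp90ab1 (0.050) turned to the other side of 0, below the median of 0.14 over all genes in those cells.

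In mesothelial cells 5 of the 8 genes, the same ones as in stromal cells apart from the HSP90 pair, had the lower level in the Tom+ library. Of all genes 56.5% had the higher level there, so with only 8 genes the count sets the members little apart. The log2 ratio of Tom+ over Tom- was -0.45 (-0.54 to -0.35) for Hspa1a and -0.32 (-0.38 to -0.25) for Hspa1b. Hspb1 was at -0.17 (-0.20 to -0.15), Hspa8 at -0.10 (-0.14 to -0.072) and Dnajb1 at -0.085 (-0.16 to -0.014). The HSP90 genes lay on the other side, with 0.17 (0.12 to 0.22) for Hsp90aa1 and 0.088 (0.054 to 0.12) for Hsp90ab1, and Hsph1 was at 0.34 (0.046 to 0.63). None of the 8 passed the size limit, which 1.78% of 10014 genes passed downward and 3.03% upward, around a median of 0.032. When cells were divided into tertiles by their share of immediate early gene RNA, the highest tertile, which held only 30 Tom+ mesothelial cells, had Hspa1a past it at -1.01, while in the middle tertile its ratio was -0.10. Only 250 Tom+ mesothelial cells stood behind these ratios. Macrophage RNA also differed there. Lyz2 was at 275 CPM in Tom+ mesothelial cells against 10.8 CPM in Tom-, and C1qa at 128 against 5.28 CPM. Cd74, the most abundant gene of the immune list there, went the other way, at 411 against 492 CPM. Over the 8 genes of the immune list the summed level was 865 and 514 CPM, and its part in the ratios was not tested.

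All 8 genes had a higher CPM in mesothelial than in stromal cells in both libraries, as did 57.2% of all genes in the Tom+ and 61.1% in the Tom- library. Hspb1 stood apart, 6.89-fold higher in the Tom+ library (log2 ratio 2.79, 2.75 to 2.82) and 5.74-fold in the Tom- library (2.52, 2.50 to 2.54), at percentile 95.7 and 95.5 of all genes. In the Tom+ library the log2 ratio was 0.77 for Dnajb1, 0.75 for Hsp90ab1, 0.74 for Hsp90aa1, 0.67 for Hspa8, 0.62 for Hsph1, 0.42 for Hspa1a and 0.17 for Hspa1b. In the Tom- library it was 0.64 for Hsp90ab1, 0.57 for Hsp90aa1, 0.48 for Hsph1, 0.42 for Dnajb1, 0.34 for Hspa8, 0.26 for Hspa1b and 0.20 for Hspa1a. Over all cells the inducible HSP70 pair had the lowest ratios in both libraries, but this order depended on which cells were compared. In the tertile of cells with the lowest share of immediate early RNA, Hspa1a was at 1.03 and Hspa1b at 0.82 in the Tom- library, above all other members but Hspb1. The size limit was passed by 6 members in the Tom+ library, where 26.0% of all genes were higher and 18.6% lower by it, and by 3 in the Tom- library, where 24.5% were higher and 15.7% lower. All members that passed it did so upward, a larger share than that of all genes in both libraries, and more so in the Tom+ library. With only 8 genes this was not tested, and only the rank of Hspb1 lay near the end of the range. The median over all genes was 0.11 and 0.14, and after centring on it all 8 ratios stayed above 0 in both libraries, the smallest being 0.058 for Hspa1b in Tom+ and 0.066 for Hspa1a in Tom- cells. The Tom+ ratios of the HSP70 pair moved as well. Without immunoglobulin-rich cells Hspa1b was at 0.051 (-0.017 to 0.12), in the middle tertile it was at -0.11, and in the highest Hspa1a was at -0.065.

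**Figure D2:**
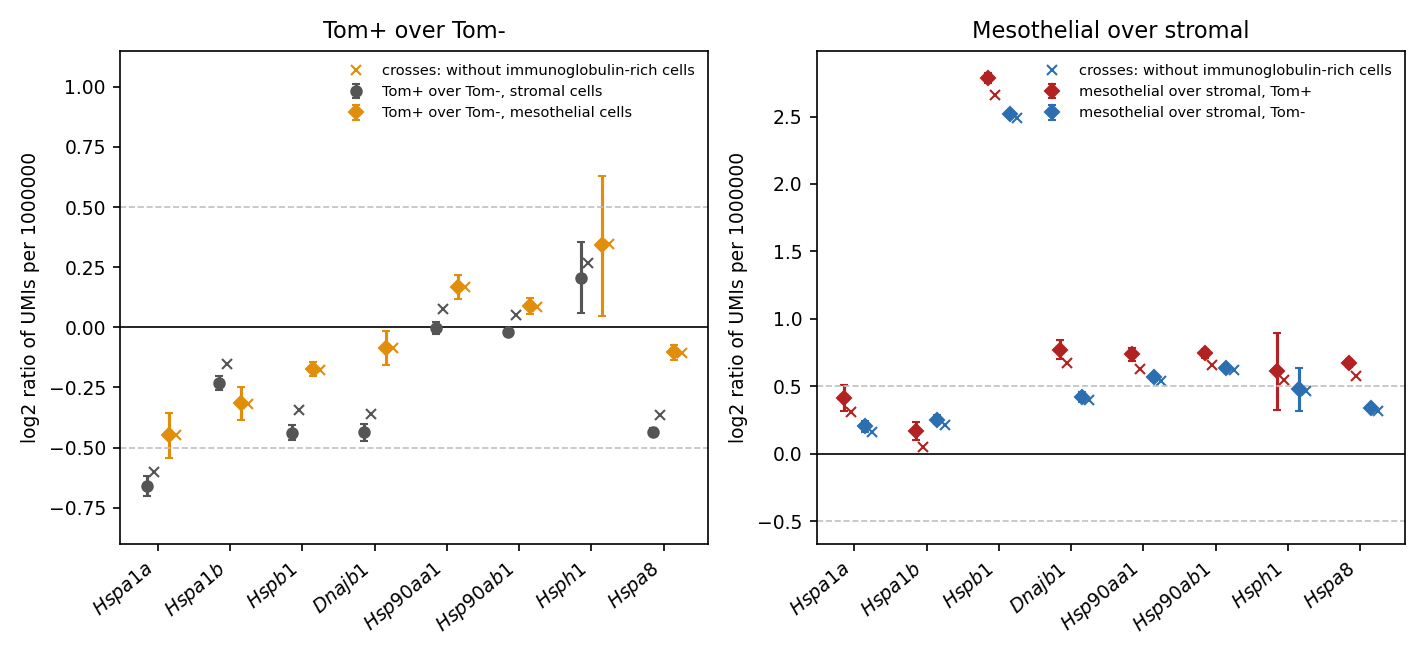
Log2 ratio of the CPM of each gene, Tom+ over Tom- on the left (grey circles stromal, orange diamonds mesothelial) and mesothelial over stromal on the right (red Tom+, blue Tom-). Bars are exact 95% counting intervals, crosses leave out immunoglobulin-rich cells, and dashed lines mark the size limit of 0.5. Hspa1a in stromal cells (-0.66, and -0.60 as a cross) is the only gene below the lower line on the left, and Hspb1 (2.79 and 2.52) lies far above the other genes on the right.

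The genes also differed in how evenly cells carried them. Each cell was thinned to 5000 UMIs, which left out 119 Tom+ and 253 Tom- stromal and 31 Tom- mesothelial cells. The 10% of stromal cells with most Hspa1a held 60.6% of its UMIs in the Tom+ and 60.5% in the Tom- library, with up to 31 and 58 of 5000 UMIs in a single cell. For Hspb1 that share was 50.2% and 50.9%, for Hspa1b 47.2% and 49.8%, and for Dnajb1 43.7% and 44.2%. Lower shares were found for the most abundant genes, the constitutive Hspa8 (23.3% and 22.1%) and Hsp90ab1 (21.5% and 21.2%). Hsp90aa1 lay between them and the genes above, at 29.9% and 28.2%. These shares rise when a gene is scarce, and Hsph1, seen in 5.76% and 5.41% of thinned stromal cells, is left out for that reason. Hspb1 and Hspa1b had more UMIs than Dnajb1 and higher shares. Genes were not matched for level, so the part of abundance was not tested. The variance over the mean gave another order. In Tom+ and Tom- stromal cells it was 2.24 and 2.40 for Hspa8, 2.23 and 2.97 for Dnajb1, and 2.07 and 1.74 for Hsp90aa1. It was 1.59 and 1.54 for Hsp90ab1, 4.11 and 6.67 for Hspa1a, 4.21 and 5.71 for Hspa1b, and 4.52 and 6.17 for Hspb1. In mesothelial cells nearly every cell carried Hspb1, with a UMI in 98.4% (96.0 to 99.6) of Tom+ and 98.9% (98.3 to 99.3) of Tom- cells and 27.3% and 28.8% of its UMIs in the top 10%. Its amount still varied, with up to 53 and 90 of 5000 UMIs in a single cell. The variance was 6.29 and 7.90 times the mean, the highest of the 8 genes there. That measure can rise with level, and Hspb1 had the highest mean, 10.2 and 11.6 UMIs per thinned cell. The top 10% held a larger share for Hspa1a (43.3% and 48.6%), Dnajb1 (41.8% and 38.0%) and Hspa1b (35.3% and 34.5%). For Hspa8 and both HSP90 genes it was smaller. Which gene varied most was not tested.

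**Figure D3:**
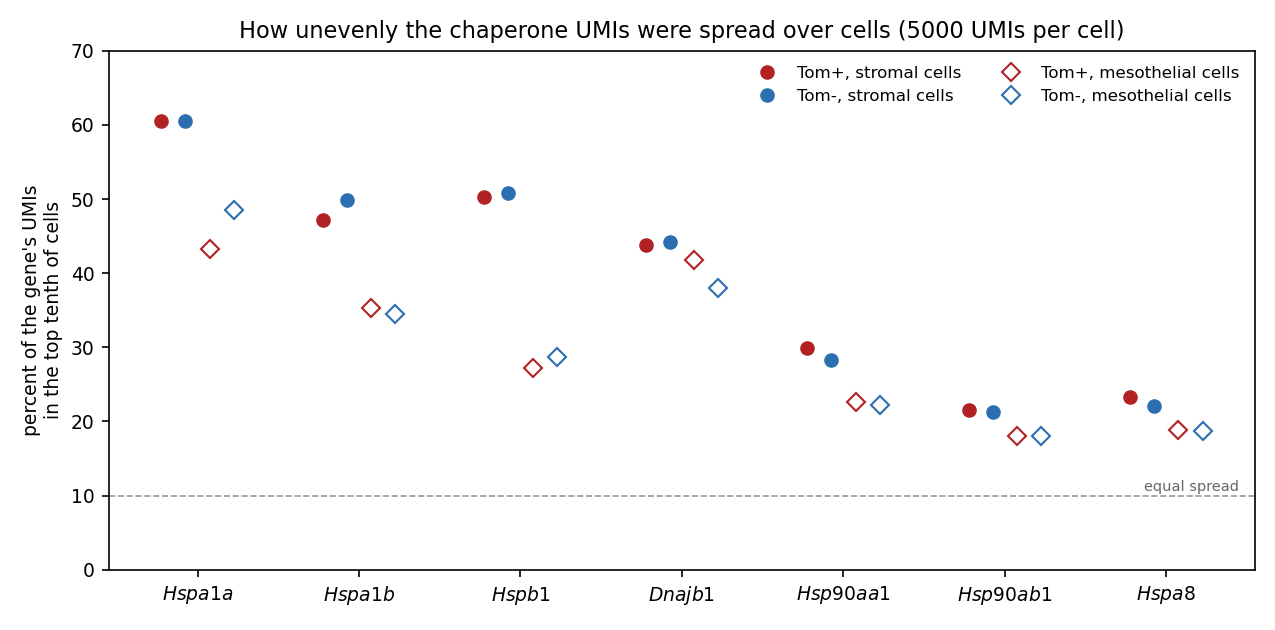
Percent of each gene's UMIs that lay in the 10% of cells carrying most of it, after thinning to 5000 UMIs per cell, for 7 genes in 4 groups (red Tom+, blue Tom-, filled circles stromal, open diamonds mesothelial). The dashed line marks equal spread. Hspa1a lies highest in stromal cells, at 60.6% and 60.5%, and Hsp90ab1 lowest, at 21.5% and 21.2%.

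After thinning, 34.9% (33.2 to 36.6) of stromal cells in the Tom+ library and 42.7% (41.3 to 44.2) in the Tom- library had a Hspa1a UMI, against 54.4% and 59.2% at full depth, where the Tom+ cells were deeper. For Dnajb1 the thinned shares were 50.6% (48.9 to 52.4) and 57.4% (56.0 to 58.9), in the same order as the CPM. At full depth they were 76.3% and 75.8%, in the other order. Hspa1b was found in 57.6% (55.8 to 59.3) and 59.7% (58.2 to 61.1), and Hspb1 in 54.6% (52.9 to 56.4) and 60.2% (58.8 to 61.6). No cell type in these libraries is sure to lack these genes, so the share that free RNA gives was not measured. Immunoglobulin UMIs outside the immunoglobulin-rich cells differed between the libraries, with a median of 9 per other Tom+ and 2 per other Tom- stromal cell. At least 10 of them were found in 165 of 250 Tom+ and 42 of 1887 Tom- mesothelial cells. Their origin was not tested. Over both libraries together the lowest levels were in the immunoglobulin-led cluster 9 described with the stromal clusters, where Hspa1a was at 6.23 CPM in the Tom+ and 60.7 CPM in the Tom- library and Hspb1 at 16.0 and 59.6 CPM.

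Between cells the 8 genes went together only weakly. Over the 28 pairs, Pearson's r of log2(UMIs + 1) in thinned cells ran from 0.016 to 0.26 in Tom+ stromal and from -0.023 to 0.32 in Tom- stromal cells, and in both the highest value was that of Hspa1a with Hspa1b. All cells of a library share its preparation, and at such counts a low r is no finding. The 10 genes whose pattern over stromal cells was most like that of the summed members, by the lower r of the libraries, included Ubb (0.28), Atf3 (0.21), Vim (0.20), Dusp1 (0.20), Jun (0.19), Rsrp1 (0.19), Ftl1 (0.18), Dnaja1 (0.18) and H3f3b (0.17). Ubb encodes polyubiquitin, Atf3, Dusp1 and Jun are immediate early genes, and Dnaja1 is another J-domain partner of HSP70. Without immunoglobulin-rich cells 7 of the 10 remained, Vim, Rsrp1 and Ftl1 were replaced by Cited2, Rhob and Osr1, and the highest value was 0.25 for Ubb.

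Stromal cells of both libraries were clustered without the 8 genes and without the other chaperone lists, which gave 12 clusters of at least 30 cells. Clusters 9 and 10 were led by immunoglobulin genes and cluster 12 by T cell genes such as Cd3g. Over both libraries together the members' lowest levels lay in cluster 9. Among the 10 clusters not led by immunoglobulin genes, Hspa1a was highest in cluster 4 (473 CPM, 4.13-fold its lowest cluster), as were Hspa1b (749.7 CPM, 3.42-fold), Hsp90aa1 (585 CPM, 1.67-fold) and Hspa8 (1545 CPM, 1.56-fold). The lowest cluster for Hspa1a was the T cell-led cluster 12, at 115 CPM, followed by cluster 2 at 125 CPM. Cluster 4 was led by Txnip, G0s2 and Ppp1r14a, with Hspa1a itself among its 10 leading genes, and held 14.6% of the clustered cells, but 29.9% of their Hspa1a and 25.7% of their Hspa1b UMIs. It also had the highest summed immediate early gene level of all clusters, 53976 CPM. The immediate early genes were not left out of the clustering, so this level is not independent of how the cells were grouped. Hspb1 followed another order, with 645 CPM in cluster 8 (led by Ccl21a, Cfd and Ncam1) and 602 CPM in cluster 5 (led by Krtdap and Efhd1, with Pi16 and Dpp4), and 178 CPM in cluster 7. Dnajb1 was highest in cluster 1 (315 CPM) and lowest in cluster 5 (179 CPM). Hsph1 was highest in cluster 6 (28.8 CPM), and Hsp90ab1 varied least, from 879 to 1256 CPM.

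Within clusters the libraries could be compared in 8 that were not led by immunoglobulin genes and held at least 30 cells of each. Dnajb1 and Hspa8 were lower in Tom+ cells in 8 of 8 clusters, with log2 ratios from -0.67 to -0.14 and from -0.48 to -0.10. The interval lay below 0 in 8 clusters for Dnajb1 and in 7 for Hspa8. Hspa1a and Hspa1b were lower in 7 of 8, with the interval below 0 in 7 and 6. The exception for both was cluster 5, where the Hspa1a level was 155 CPM (Tom+) against 130 CPM (Tom-), a log2 ratio of 0.26 (0.12 to 0.40), and Hspa1b at 290 and 201 CPM, a ratio of 0.53 (0.42 to 0.63). Cluster 7, led by Gsc, Cd300lg and Aspn, had the lowest ratio for Hspa1a, -1.03 (-1.17 to -0.88). Hspb1 was lower in Tom+ cells in 5 of 8 clusters. Hsp90ab1 was higher in 7 of 8, by at most 0.16, with an interval above 0 in only 2. Over all stromal cells 60.5% of genes were higher in the Tom+ library, and the share within each cluster was not measured. The clusters were made from genes that differ between the libraries, so they separate the libraries in part.

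**Figure D4:**
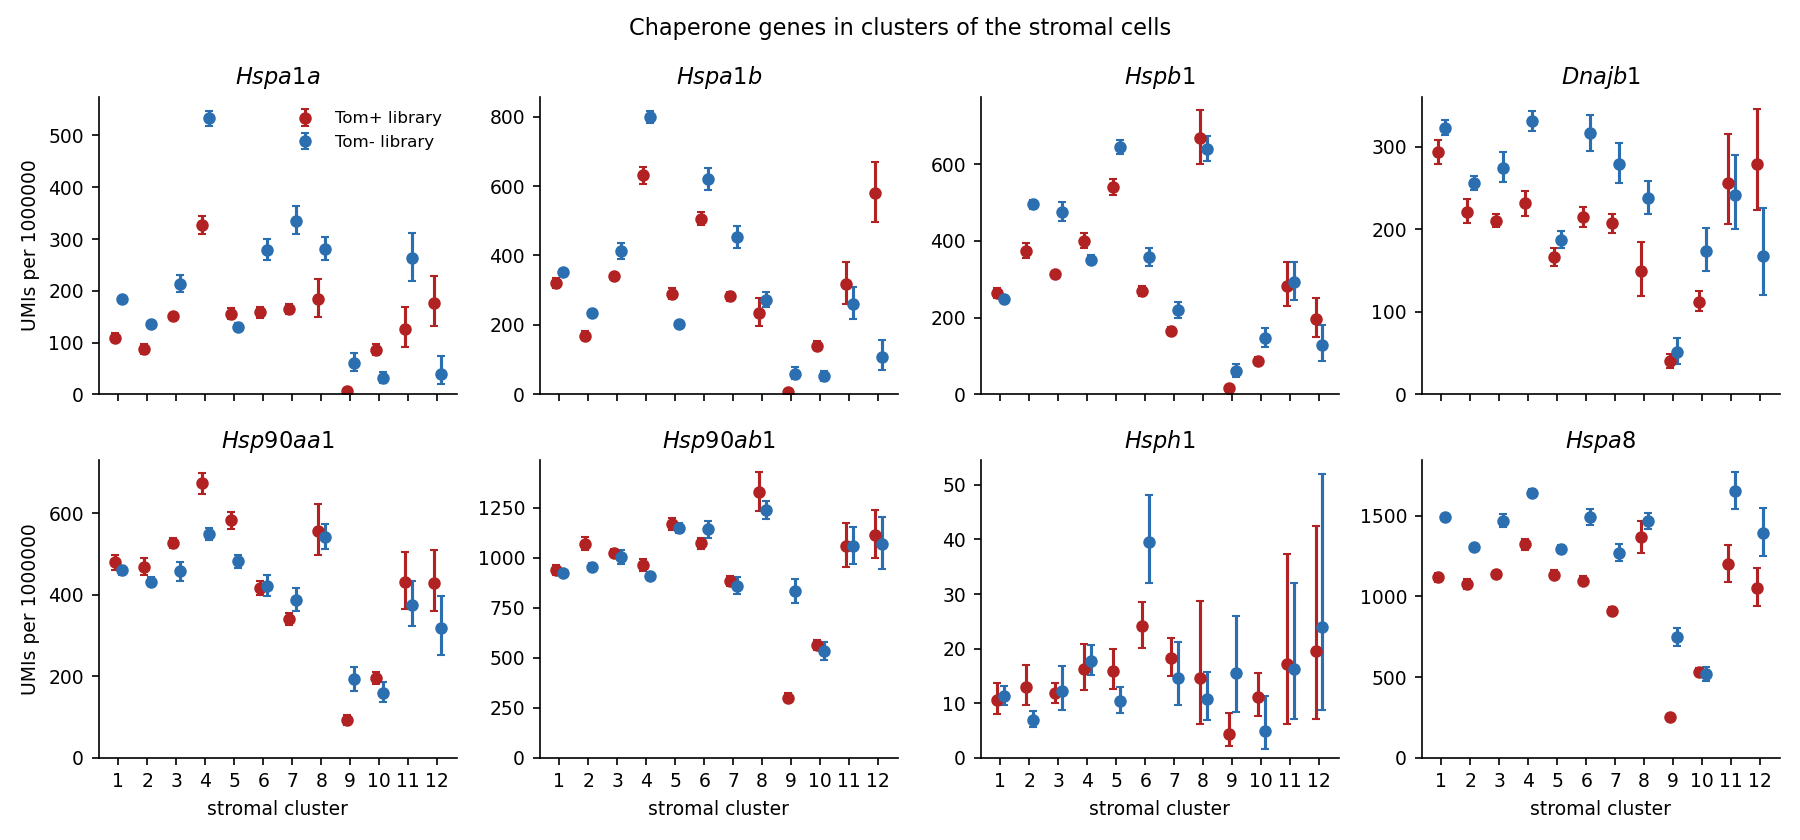
CPM of each gene in the 12 stromal clusters (horizontal axis, numbered by size), with Tom+ cells in red and Tom- cells in blue and exact Poisson 95% intervals. Hspa1a and Hspa1b peak in cluster 4, and cluster 5 is where both are higher in Tom+ cells among the well-filled clusters. In Tom+ cells all 8 genes are lowest in the immunoglobulin-led cluster 9. In Tom- cells Hspb1 and Dnajb1 are lowest there, and Hsph1 (15.5 CPM) is not low there. The members other than Hspb1 and Dnajb1 are lowest in Tom- cells of cluster 10, also immunoglobulin-led, with Hspa1a at 30.9 CPM.

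The members were next set beside the immediate early genes, a list of 22 early-response transcripts such as Fos, Jun and Egr1 that does not contain them. These genes summed to 36436 CPM in Tom+ and 43934 CPM in Tom- stromal cells, lower for 17 of 22 genes in Tom+ cells where 60.5% of all genes were higher, and to 34346 and 36502 CPM in mesothelial cells. All kept cells of both libraries were divided into tertiles by the share of their UMIs from this list, with limits at 3.48% and 4.66%. The highest tertile held 26.0% of Tom+ and 45.0% of Tom- stromal cells. In the lowest tertile Hspa1a stood at 104 CPM (100.1 to 108) for Tom+ and 105 CPM (100.0 to 110.1) for Tom- stromal cells, with overlapping intervals. In the middle tertile it was at 171 (165 to 177) and 183 (177 to 189.6) CPM, with a log2 ratio of -0.10 (-0.17 to -0.029). In the highest it was at 205 (197 to 214) and 357 (349 to 365) CPM, with a log2 ratio of -0.80 (-0.87 to -0.73). The Hspa1a levels of the libraries were thus close in the lowest and middle tertile and far apart in the highest. From the lowest to the highest tertile Hspa1a was 1.97-fold higher in Tom+ and 3.40-fold higher in Tom- cells.

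Other members behaved differently. Hspa1b was higher in Tom+ cells of the lowest and middle tertile (log2 ratio 0.087 and 0.21) and lower in the highest (-0.45). Hspa8 (-0.49, -0.28 and -0.32) and Dnajb1 (-0.38, -0.16 and -0.41) were lower in Tom+ cells of every tertile. Hspb1 showed the reverse order of Hspa1a, with the greatest difference in the lowest tertile (-0.76, -0.81 to -0.71) and the least in the highest (-0.097, -0.15 to -0.040). Hsp90ab1 moved little with the immediate early share, the highest tertile being at 1.04 times the lowest in Tom+ and 0.901 times in Tom- cells. Without immunoglobulin-rich cells it was at 0.904 and 0.853 times, lower in the highest tertile in both libraries. Immunoglobulin-rich cells lay mostly in the lowest tertile, and without them the Hspa1a ratio there was 0.058 (-0.035 to 0.15), that of Hspb1 -0.63 and that of Hspa8 -0.38. Tertiles were formed from a measured RNA share, and what sets that share was not tested.

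**Figure D5:**
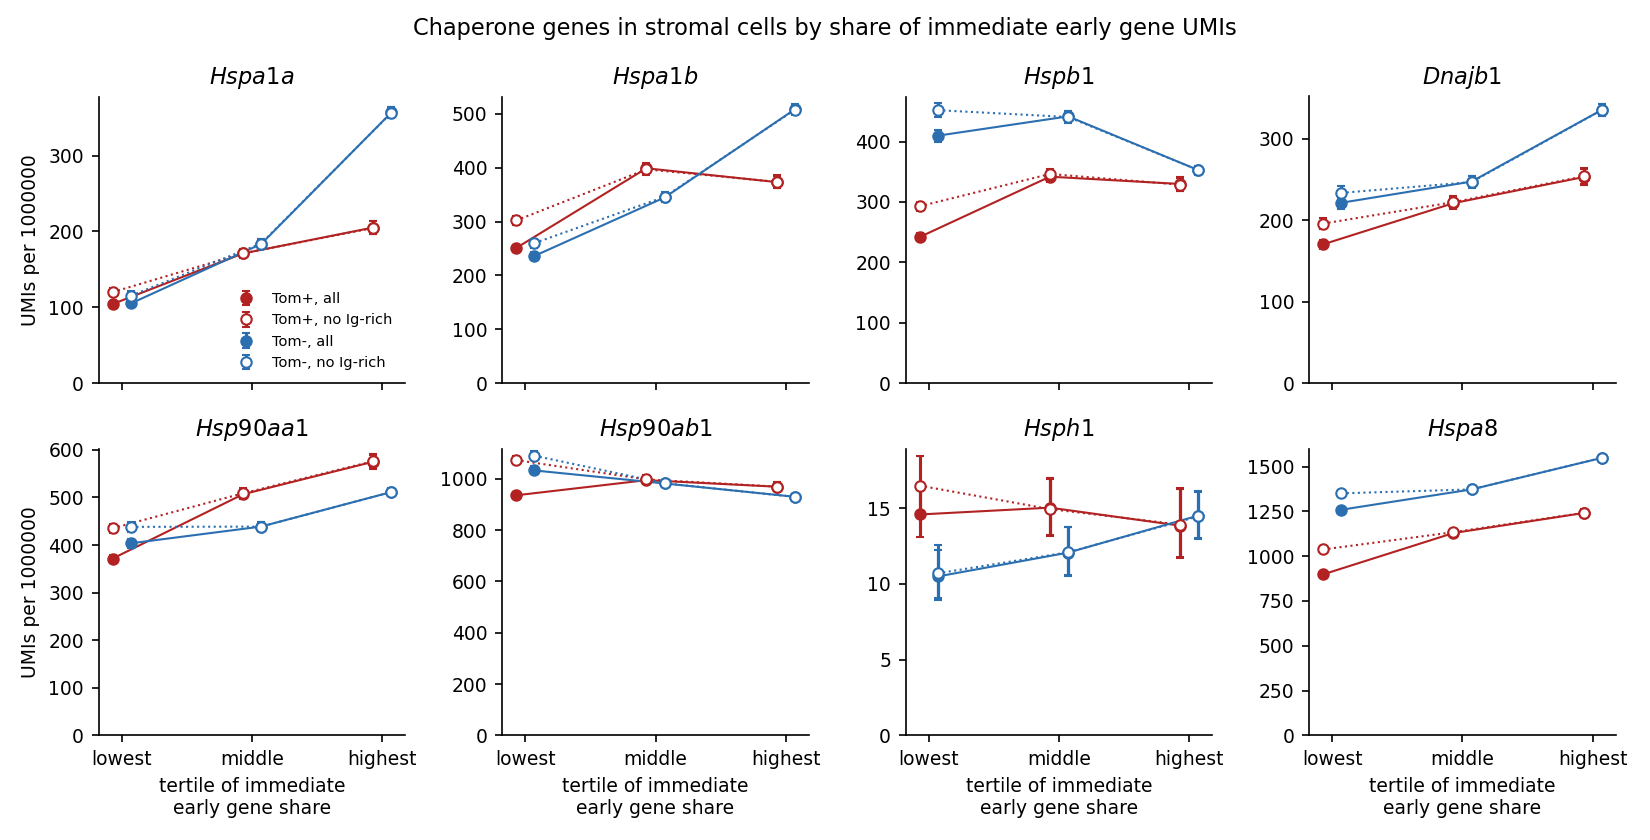
CPM of each gene in stromal cells of the lowest, middle and highest tertile of immediate early gene share, Tom+ red and Tom- blue, with exact Poisson 95% intervals. Filled symbols are all stromal cells and open symbols leave out immunoglobulin-rich cells. The Hspa1a lines meet at 104 and 105 CPM in the lowest tertile and part to 205 and 357 CPM in the highest, while the Hspa8 lines stay apart throughout.

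Within a library, cells with a tdTomato UMI were compared with those without, in thinned cells. At full depth this reporter RNA was scarce in the Tom- library. Stromal cells held 13.1 CPM of it there against 211 CPM in the Tom+ library, and mesothelial cells 8.25 against 780 CPM. Whether a tdTomato UMI in a Tom- cell came from that cell was not tested. Of the Tom+ stromal cells 553 had a tdTomato UMI and 2591 had none, so most sorted cells showed no tdTomato RNA at this depth. Hspa1b was at 268 CPM with and 365 CPM without tdTomato RNA, a log2 ratio of -0.44 (-0.56 to -0.33). Hspa1a went the other way, at 176 and 154 CPM (0.19, 0.044 to 0.33), and Hspb1 was at 275 and 318 CPM (-0.21, -0.32 to -0.099). Hsp90ab1 had a ratio of -0.13 (-0.19 to -0.065) and Hspa8 of -0.10 (-0.16 to -0.047). The intervals of Dnajb1, Hsp90aa1 and Hsph1 included 0. In the Tom- library, with 281 stromal cells that had a tdTomato UMI, Hspb1 was at 475 CPM with and 390.4 CPM without it (0.28, 0.17 to 0.40), on the other side of 0 from the Tom+ library. Hsp90aa1 had a ratio of 0.17 (0.056 to 0.27) there, and the intervals of the remaining genes included 0. In mesothelial cells of the Tom+ library, Hspa1a was at 150.3 CPM in 157 cells with and 228 CPM in 93 cells without tdTomato RNA (-0.60, -0.99 to -0.21). Hspa8 had a ratio of 0.14 (0.010 to 0.27) in these cells, and the intervals of the remaining genes included 0. In the Tom- library 72 mesothelial cells had a tdTomato UMI and 1784 had none. Dnajb1 was at 489 CPM with and 349 CPM without it (0.49, 0.26 to 0.70), Hspb1 at a ratio of 0.18 (0.080 to 0.27) and Hspa1a at 0.29 (0.010 to 0.56). In these Tom- mesothelial cells the intervals of the other 5 genes included 0. These intervals count UMIs and leave out the spread between cells. In all thinned Tom- mesothelial cells the variance was 2.51 times the mean for Dnajb1, 7.90 for Hspb1 and 3.64 for Hspa1a. Intervals over cells would be wider, so whether these differences exceed that spread was not tested.

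The rest of the chaperone system is given by list, with counts of genes at a mean of 5 CPM or more. Over all such genes 60.5% were higher in Tom+ than in Tom- stromal cells, around the median of 0.071. These values include the immunoglobulin-rich cells, without which the median over all genes was 0.14. The lists, the immediate early genes included, were not redone without those cells. The direction of list genes near 0, and the counts of lower genes, may therefore depend on them. Among HSF1 and its regulators 6 of 9 genes were lower in Tom+ stromal cells, with none past the size limit and a median log2 ratio of -0.052. The cochaperone Bag3, a classic HSF1 target, was at -0.44 (-0.48 to -0.40) and Hsf1 itself at -0.36 (-0.48 to -0.25). In the HSP70 and HSP110 family 3 of 6 were lower, with Hspa2 at -0.69 (-0.80 to -0.58). The J-domain proteins (7 of 11 lower, median -0.13), the HSP90 cochaperones (7 of 10, -0.025), the mitochondrial chaperones (4 of 6, -0.061), the TRiC and prefoldin subunits that fold actin and tubulin (10 of 13, -0.12) and the ER chaperones (8 of 14, -0.066) had no gene past the limit. In the ER list Hspa5, the ER-resident HSP70 BiP, was at -0.36 (-0.37 to -0.34) and the lectin chaperone Canx at 0.39 (0.35 to 0.42). The small heat shock proteins gave 2 of 4 lower and 1 higher past the limit, with Hspb8, the partner of Bag3, at -0.43 (-0.47 to -0.39) and Cryab at 0.034 (-0.013 to 0.082). The median of the 8 members, -0.33, lay below each of these medians and below the -0.22 of the immediate early genes.

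Between mesothelial and stromal cells the small heat shock proteins had the highest medians, 1.26 in Tom+ and 1.31 in Tom-. Here too the stromal values include the immunoglobulin-rich cells. Cryab, the alpha-B crystallin, was 2.63-fold and 2.83-fold higher in mesothelial cells. Hspb8 was at a log2 ratio of 0.29 (0.21 to 0.38) in the Tom+ library and 0.014 (-0.025 to 0.052) in the Tom- library. Hspa2 was 4.06-fold and 2.63-fold higher in mesothelial cells. All 10 HSP90 cochaperones were higher in mesothelial cells in both libraries, with medians of 0.31 and 0.22 and Fkbp4 at 0.53 and 0.64, and so were 12 of 13 TRiC and prefoldin genes. Over all genes 57.2% in the Tom+ and 61.1% in the Tom- library were higher in mesothelial cells. Measured against the median of all genes, 9 cochaperones in the Tom+ and 6 in the Tom- library lay above it, as did 12 and 10 TRiC and prefoldin genes. The ER chaperones split evenly, 7 higher and 7 lower in each library, with Sdf2l1 at 1.16 and 1.31 and Creld2 at -1.51 and -0.88. Of the immediate early genes 15 of 22 in the Tom+ and 17 of 22 in the Tom- library were lower in mesothelial cells, although Atf3 was 3.45-fold and 2.89-fold higher.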

How the data were processed

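The authors processed the reads with Cell Ranger 3.0.2 against mm10 (10x Genomics 3' kit v3.1), per the labels, and deposited whole-number UMI counts per gene and barcode for 1 Tom+ and 1 Tom- library, without normalization. Genes were matched by symbol, and positions come from GENCODE (GRCm38). Members, gene lists and comparisons were chosen with earlier results of these data known. Counts were summed per class and library and scaled to CPM. Intervals are exact Poisson (levels) and exact Clopper-Pearson (shares and ratios). The background was all genes that averaged 5 CPM or more. Named list genes had at least 20 CPM in stromal cells and were among the 3 largest absolute log2 ratios of their list, and the 10 most similar genes were ranked by the lower r of the libraries. Shares, spread and correlations used cells thinned to 5000 UMIs (seed 0). Unthinned stromal cells were clustered from 2000 variable genes and 30 principal components at Leiden resolution 0.5 (scanpy 1.11.5, igraph 0.11.9, Python 3.11.15). Doublets were kept in the main values. Scrublet, as an alternative, called 2 of 3524 Tom+ and 122 of 6717 Tom- cells. Ratio and thinning code was tested on simulated data. The alternatives were another scaling, equal cell weights, equal stromal cluster weights, thinning, other cell limits, tertiles and cells left out. Some genes that these rules name are not reported here.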

Additional observations from a re-analysis of the deposited data

Results flagged for a closer look

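Hspa1a and Hspa1b had a higher level in Tom+ than Tom- cells in stromal cluster 5, with log2 ratios of 0.26 and 0.53, while in the other 7 clusters compared that were not led by immunoglobulin genes both were lower in Tom+ cells. The difference between clusters was not tested.

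Hsp90aa1 had a log2 ratio of Tom+ over Tom- of -0.0012 in stromal and 0.17 in mesothelial cells, and Hsp90ab1 of -0.019 and 0.088. The signs differ between the cell classes, the difference was not tested, and without immunoglobulin-rich cells the stromal signs turn positive.

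Barcodes with 1000 genes or fewer, which no comparison used, held the 8 genes at a summed 3681 CPM (Tom+) and 4099 CPM (Tom-). Hspb1 was at 791 and 723 CPM there, between its stromal and mesothelial levels. Of these barcodes, 1678 of 1892 (Tom+) and 1913 of 4969 (Tom-) were also listed in the other library. Kept cells of the other library carried 272 and 496 of them. Whether the values of the libraries are separate from each other was not tested.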

How the results depend on the processing

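No paired analysis was possible because each group had 1 library and no test was run. In Tom+ against Tom- stromal cells 1 member, Hsph1, had the higher CPM in Tom+, where 60.5% of all genes were higher. That share was not measured in the other settings, so the counts below have no background beside them. The number of members was 2 with a mitochondrial share under 5%, without Scrublet doublets, and in the lowest and the highest immediate early tertile. It was 3 without the 5% of cells with most UMIs, without cells with 10 UMIs of another type, without immunoglobulin-rich cells, after thinning and with cells weighted equally, and 4 in the middle tertile. The immunoglobulin and middle tertile settings were chosen after seeing the data. Most of these moves came from the HSP90 genes near 0. Hsph1 itself turned lower in Tom+ cells in the highest tertile (-0.068) and with stromal clusters weighted equally (-0.11). Over 424 alternative member ratios 25 changed sign, 17 of them for Hsp90aa1 and Hsp90ab1 in stromal cells, and none that had passed the size limit. The stromal Hspa1a ratio fell within the limit in the lowest (-0.011) and middle (-0.10) tertiles. The mesothelial one ran from -1.01 in the highest to -0.10 in the middle tertile. Mesothelial over stromal cells in the Tom- library, Hspa1a ran from 0.066 to 1.03 and Hspa1b from 0.12 to 0.82. The counts for mesothelial cells and for mesothelial over stromal cells stayed within 1.5 times the main ones. Without the CPM minimum, 25.0% of genes passed the size limit in stromal cells in place of 10.7%. Hsph1 rested on 119 to 745 UMIs per class, and Tom+ mesothelial cells in the highest tertile numbered 30.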
